A study of Mus musculus with 6 samples.

Results

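The genes described here act on, or repair, the DNA lesion made by camptothecins: the topoisomerases *TOP1*, *TOP1MT*, *TOP2A*, *TOP2B* and *TOP3A*, the tyrosyl-DNA phosphodiesterases *TDP1* and *TDP2*, the strand break factors *PARP1* and *XRCC1*, and *SLFN11*. They were chosen by name, and all 10 were found among the 58735 genes of the table. RNA-Seq covered 22Rv1, a human prostate cancer cell line, as 3 libraries of parental cells given vehicle and 3 libraries of the subline 22Rv1 BL-B01D1_R. The subline was grown from parental cells in slowly rising concentrations of BL-B01D1, an antibody-drug conjugate against EGFR and HER3 that carries Ed-04, a camptothecin derivative and topoisomerase I inhibitor. The labels name no engineered allele in either group. The resistant cells are 1 subline, so the spread between their libraries does not cover a repeated selection. Nothing in the labels says that the 3 libraries of a group came from separate cultures, so p-values measure only the spread between these libraries, which may be technical. Whether conjugate was in the medium at harvest is not given in the sources used here. The organism label names mouse, whereas the cell line, the genome build (hg38) and the gene identifiers are human, and the data were read as human.

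Topoisomerases relax or untangle DNA by cutting it and letting strands pass, while a tyrosine of the enzyme holds the broken end. Camptothecins lock TOP1 on its cut, and a replication fork or RNA polymerase that runs into the trapped enzyme turns it into a lasting break with protein attached. Reduced TOP1, stronger repair of the trapped complex and loss of SLFN11, which blocks stressed replication forks, are textbook routes to camptothecin resistance, so the comparison asks whether the transcripts of these genes differed in cells selected under such a payload.

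The differences were small. Of the 10 members, *SLFN11* and *TDP2* were higher in resistant cells and *TOP1*, *TOP1MT*, *TOP2A*, *TOP2B* and *PARP1* were lower at an FDR under 0.05 in edgeR's quasi-likelihood test, adjusted over all 17142 genes tested. *TOP3A*, *TDP1* and *XRCC1* did not pass. Over all tested genes, 17.1% passed as higher (2 of the 10 members did) and 18.4% passed as lower (5 of the 10). Among the 7043 genes at least as abundant as the least abundant member, 22.6% passed as higher and 24.8% as lower, so the members' count was near the background in the higher direction and above it in the lower, a difference that was not tested. The largest member difference, that of *SLFN11*, was 22.2%, and the largest decrease, that of *TOP1MT*, was 11.6%. No member reached the study's threshold of an absolute log2 fold change over 1 with that FDR (0 of 10 in edgeR, DESeq2, limma-voom and limma on FPKM, against 7 at an unadjusted p under 0.05), a call made for 5.37% of all tested genes. The median absolute log2 fold change was 0.11 over the members and 0.17 over all tested genes. Over those 7043 genes, which were not matched to the members in abundance, it was 0.11.

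**Figure D1:**
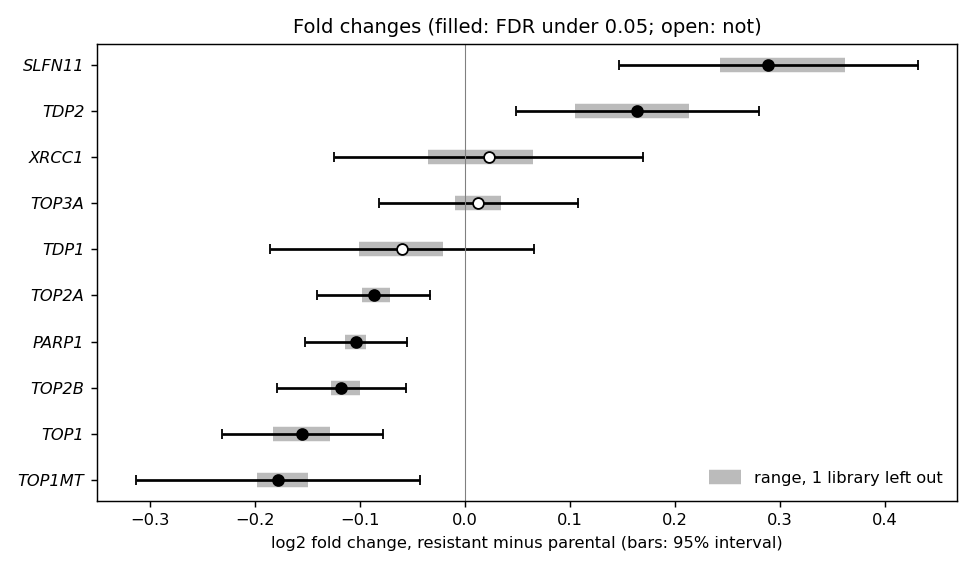
Log2 fold change of each member, resistant over parental (horizontal axis, 0 for no difference). Points are edgeR estimates, bars their 95% intervals, grey bands the range when 1 library at a time is left out, and filled points have an FDR under 0.05. Estimates run from -0.18 for *TOP1MT* to 0.29 for *SLFN11*.

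Total counts were between 13821639 and 17251491 per library, at which 3 counts, the limit that a count of 0 allows, equal 0.174 to 0.216 CPM (counts per 1000000 counts, TMM-scaled). That limit covers counting error only. Member counts were between 388 and 15932 in every library, and the coefficient of variation of a member's CPM within a group was between 0.629% and 8.79%. All 10 prostate luminal markers were tested, and their summed level was 3448 to 3550 CPM in parental and 3640 to 3728 CPM in resistant libraries. They moved both ways, with 6 higher and 3 lower: *KLK3*, low at 2.67 and 4.96 CPM on average, had a log2 fold change of 0.91 and *HOXB13* one of -0.48 (edgeR FDR 0.000606 and 2.29e-17). Of 6 neuroendocrine markers, 4 were tested, with summed levels of 316 to 323 CPM and 307 to 319 CPM and with *INSM1* near 0. Within that sum *CHGA* fell from 39.4 to 8.18 CPM (log2 fold change -2.26, edgeR FDR 2.49e-24) and *CHGB* rose (0.65, edgeR FDR 6.59e-10). Of 6 fibroblast markers, 4 were tested, with summed levels of 112 to 115 CPM and 39.6 to 44.7 CPM, mostly *LUM* (log2 fold change -1.74, edgeR FDR 1.11e-26), while *COL1A2* and *PDGFRB* were near 0. The 7 leukocyte and endothelial markers summed to at most 1.85 CPM in any library, with *CD3E* and *CDH5* at 0. The part of these markers in the results that follow was not tested. All libraries were labelled as the prostate cancer cell line, and the labels name no added fibroblasts, blood cells or vessel cells. In bulk RNA of such a culture, fewer cells of the line with a transcript and less of it per cell cannot be told apart.

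*TOP1* (ENSG00000198900; chromosome 20, 41028818 to 41124487, plus strand) encodes the nuclear enzyme that camptothecins trap. Its level was 147.8, 152.5 and 140.7 CPM in parental replicates 1 to 3 and 129.4, 136.1 and 131.1 CPM in resistant replicates 1 to 3. All resistant libraries lay below all parental ones, which was true of 22.8% of all tested genes. The means were 147.0 ± 5.94 and 132.2 ± 3.49 CPM (SD, n = 3 each). In resistant cells the level was 10.2% lower, a log2 fold change of -0.16 ± 0.04 (SE) with a 95% interval of -0.23 to -0.08 on the log2 scale (edgeR FDR 0.00108). The exact permutation test of the 3 against 3 libraries, two-sided, gave p = 0.1, the smallest that this design allows. The estimate lay between -0.18 and -0.13 when 1 library at a time was left out and passed in all 6 such fits. Larger absolute log2 fold changes were found in 53.5% of tested genes.

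*TOP1MT* (ENSG00000184428; chromosome 8, 143304384 to 143359979, minus strand) encodes the mitochondrial paralog of TOP1. Its level was 34.98, 34.54 and 36.96 CPM in the parental libraries and 31.79, 31.61 and 30.57 CPM in the resistant ones. The groups did not overlap, with means of 35.5 ± 1.29 and 31.3 ± 0.662 CPM. The log2 fold change of -0.18 ± 0.07 passed by a narrow margin (edgeR FDR 0.0338). It did not pass without parental replicate 3 (-0.15, FDR 0.122), without resistant replicate 1 (-0.19, FDR 0.0633), 2 (-0.18, FDR 0.0673) or 3 (-0.16, FDR 0.111), nor with DESeq2 (FDR 0.0896). Per length, *TOP1MT* stood at 0.140 ± 0.011 of *TOP1* in parental and 0.138 ± 0.004 in resistant libraries, a log2 difference of -0.03 (exact permutation p = 0.8, two-sided, adjusted p = 0.8 over 6 ratios). The proportion between the transcripts of the mitochondrial and the nuclear enzyme overlapped between the groups, and its log2 difference turned to 0.03 without parental replicate 3.

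**Figure D2:**
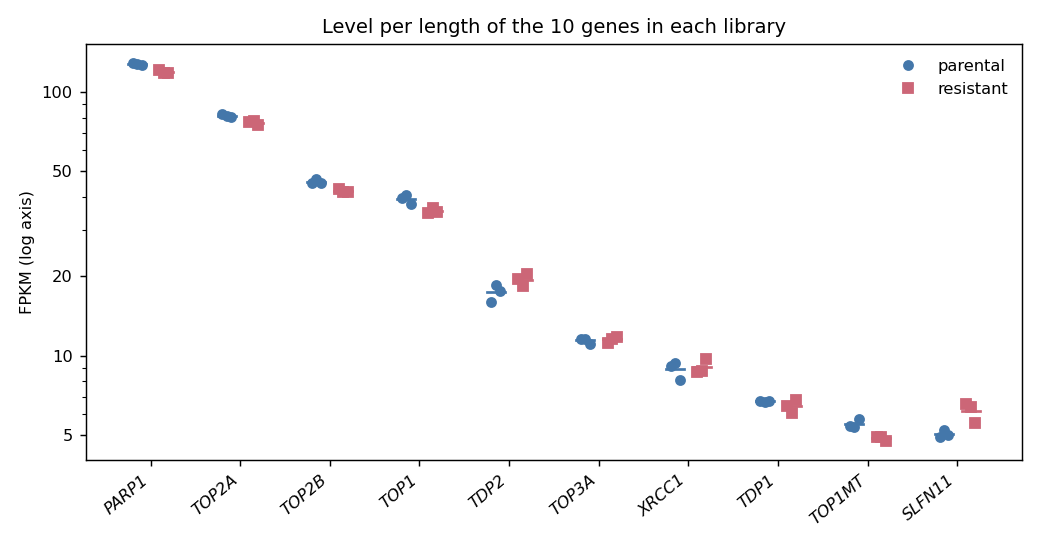
Level of each member by library. Circles are parental and squares resistant libraries (n = 3 each), and the short line is the group mean. *TOP1*, *TOP1MT*, *TOP2A*, *TOP2B* and *PARP1* have all squares below all circles, *SLFN11* has all squares above, and the other 4 genes overlap.

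The type II topoisomerases cut both strands. *TOP2A* (ENSG00000131747; chromosome 17, 40388516 to 40417950, minus strand), which peaks in dividing cells and separates sister chromosomes, was at 532.5, 521.0 and 516.7 CPM in parental and 495.0, 501.0 and 482.7 CPM in resistant libraries. No resistant library reached a parental one, and the means were 523.4 ± 8.17 and 492.9 ± 9.34 CPM. The log2 fold change of -0.09 ± 0.03 was a level 5.86% lower (edgeR FDR 0.00885), and without resistant replicate 3 it was -0.07 (FDR 0.0591). *TOP2B* (ENSG00000077097; chromosome 3, 25597905 to 25664907, minus strand), the form present also in resting cells, was at 272.9, 282.9 and 271.9 CPM in parental and 258.1, 252.2 and 252.4 CPM in resistant libraries. Its groups did not overlap either, with means of 275.9 ± 6.10 and 254.3 ± 3.36 CPM and a log2 fold change of -0.12 ± 0.03, a level 7.85% lower (edgeR FDR 0.00193). *RARB* overlaps *TOP2B* on the opposite strand, and since the strand setting of the counting is not given, reads of the pair may be mixed. Its count was at most 3.81% of the *TOP2B* count in any library. The per-length ratio of *TOP2A* to *TOP2B* was 1.78 ± 0.05 in parental and 1.82 ± 0.04 in resistant libraries (log2 difference 0.03, exact permutation p = 0.4, two-sided, adjusted p = 0.6).

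*TOP2A* is itself transcribed in dividing cells, so its level was set beside a list of 20 proliferation genes. All were tested, 15 fell, 0 rose and 5 did not pass, with a median log2 fold change of -0.23. Their summed level was 4118 to 4201 CPM in parental and 3561 to 3564 CPM in resistant libraries. *CCNB2*, a mitotic cyclin, was at 102.0 ± 2.31 CPM and 79.1 ± 2.25 CPM (log2 fold change -0.37 ± 0.04, edgeR FDR 3.43e-09). *PLK1*, a mitotic kinase, was at 119.7 ± 3.34 CPM and 94.0 ± 1.41 CPM (-0.35 ± 0.04, edgeR FDR 2.22e-09). *TOP2A* counts equalled 12.68%, 12.63% and 12.55% of the summed counts of these 20 genes in parental libraries and 13.89%, 14.07% and 13.55% in resistant libraries. The share was thus higher in resistant libraries, which restates that the list fell by more than *TOP2A* did. This share was chosen after the list's decrease had been seen, and no test is given for it. The part of the lower proliferation transcripts in the levels of *TOP2A* and of the other members was not tested.

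*TOP3A* (ENSG00000177302; chromosome 17, 18271428 to 18315007, minus strand) encodes the type IA enzyme that dissolves joined DNA molecules together with BLM, RMI1 and RMI2. It was at 75.18, 75.09 and 71.46 CPM in parental and 72.57, 74.92 and 76.42 CPM in resistant libraries. The groups overlapped, and the log2 fold change was 0.01 with an interval of -0.08 to 0.11 (edgeR FDR 0.872). Its estimate fell on either side of 0 depending on scaling and on the library left out. The companion *TOP3B* had between 3 and 14 counts per library and was too low to be tested.

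TDP1 hydrolyzes the bond that ties a trapped TOP1 to a DNA end, and TDP2 does the same for TOP2. *TDP1* (ENSG00000042088; chromosome 14, 89954939 to 90044768, plus strand) was at 41.94, 41.56 and 42.07 CPM in parental and 40.06, 37.87 and 42.40 CPM in resistant libraries. The highest value of all was in resistant replicate 3 and the lowest in resistant replicate 2, so the groups overlapped. The log2 fold change was -0.06 with an interval of -0.19 to 0.07 (edgeR FDR 0.496). *TDP1* stood per length at 0.171 ± 0.008 of *TOP1* in parental and 0.182 ± 0.014 in resistant libraries, which did not pass the exact permutation test (p = 0.3, two-sided, adjusted p = 0.6).

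*TDP2* (ENSG00000111802; chromosome 6, 24649977 to 24667033, minus strand) was at 49.25, 57.05 and 54.39 CPM in parental and 60.20, 56.83 and 62.73 CPM in resistant libraries. Parental replicate 2 lay above resistant replicate 2, so the groups overlapped, and the means were 53.6 ± 3.96 and 59.9 ± 2.96 CPM. The log2 fold change of 0.16 ± 0.06 was a level 12.1% higher (edgeR FDR 0.0221, exact permutation p = 0.2, two-sided). This pass rested on single libraries: the estimate was 0.10 without parental replicate 1 (FDR 0.183), 0.16 without resistant replicate 1 (FDR 0.0625) and 0.13 without resistant replicate 3 (FDR 0.123). With DESeq2 the FDR was 0.0651, and on the log2(FPKM + 1) scale limma gave an FDR of 0.127, so *TDP2* passed in neither. Set against the enzyme it serves, *TDP2* stood per length at 0.354, 0.395 and 0.392 of *TOP2B* in parental and 0.457, 0.442 and 0.487 in resistant libraries. These ratios did not overlap (log2 difference 0.28, exact permutation p = 0.1, two-sided), and with 6 ratios compared the adjusted p was 0.6.

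**Figure D3:**
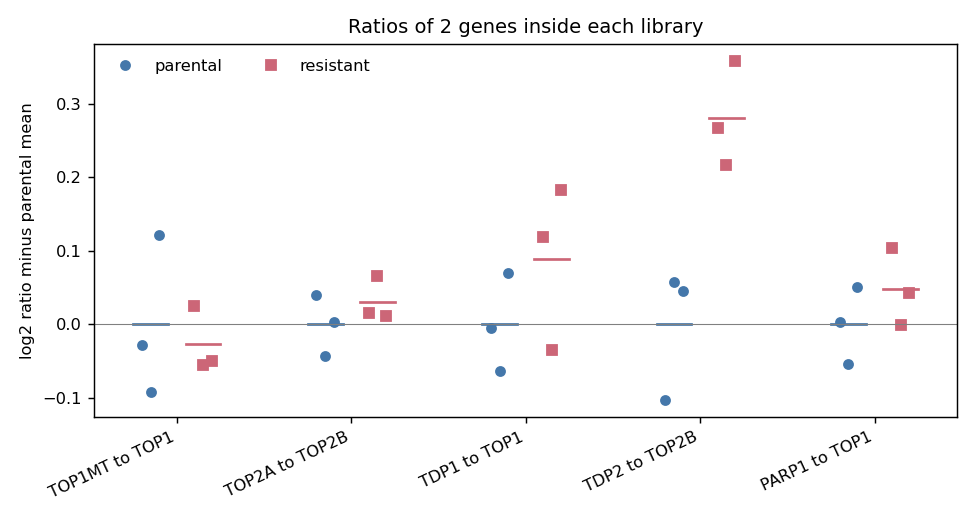
Log2 of the per-length ratio of paired members, minus its parental mean (vertical axis), by library. The ratio of *TOP3A* to *TOP3B* is not drawn. Circles are parental and squares resistant libraries (n = 3 each), and the short line is the group mean. The resistant libraries lie wholly above the parental ones for *TDP2* to *TOP2B* (as plain ratios, 0.442 to 0.487 against 0.354 to 0.395).

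PARP1 senses strand breaks and marks them with poly(ADP-ribose), and XRCC1 is the scaffold that this mark recruits. *PARP1* (ENSG00000143799; chromosome 1, 226360691 to 226408079, minus strand) was the most abundant member, at 924.2, 916.8 and 909.7 CPM in parental and 867.6, 849.2 and 842.3 CPM in resistant libraries. The groups did not overlap, with means of 916.9 ± 7.29 and 853.0 ± 13.1 CPM. *PARP1* was 6.97% lower in resistant cells (log2 fold change -0.10 ± 0.02, edgeR FDR 0.000533) and passed in all 6 fits without 1 library. Relative to *TOP1* per length, *PARP1* was at 3.26 ± 0.12 in parental and 3.37 ± 0.12 in resistant libraries (exact permutation p = 0.5, two-sided, adjusted p = 0.6). *XRCC1* (ENSG00000073050; chromosome 19, 43543040 to 43580473, minus strand) was at 31.56, 32.51 and 27.95 CPM in parental and 29.92, 30.32 and 33.46 CPM in resistant libraries. Its groups overlapped, and the log2 fold change was 0.02 with an interval of -0.13 to 0.17 (edgeR FDR 0.85). The sign turned without parental replicate 3, the lowest library (-0.04), and without resistant replicate 3, the highest (-0.03).

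*SLFN11* (ENSG00000172716; chromosome 17, 35350305 to 35373701, minus strand) was the member with the largest difference. Its level was 29.41, 31.20 and 29.82 CPM in parental and 39.15, 38.27 and 33.15 CPM in resistant libraries. Each resistant library lay above each parental one, as was the case for 22.1% of all tested genes, and resistant replicate 3 lay nearest to the parental group. The means were 30.2 ± 0.938 and 36.9 ± 3.24 CPM. In resistant cells the level was 22.2% higher, a log2 fold change of 0.29 ± 0.07 with a 95% interval of 0.15 to 0.43 on the log2 scale (edgeR FDR 0.0011, exact permutation p = 0.1, two-sided). It passed in all 6 fits without 1 library, in which the estimate lay between 0.24 and 0.36, and in all 10 other alternatives. The direction was opposite to the loss of *SLFN11* that is known from camptothecin-resistant cells, and 31.9% of tested genes had a larger absolute log2 fold change. The part of *SLFN11* in the resistance was not tested. Of the other 5 Schlafen genes, *SLFN5* (log2 fold change -0.17, FDR 0.479) and *SLFN13* (-0.33, FDR 0.258) were tested and did not pass in edgeR. *SLFN12* had at most 1 count in a library, and *SLFN12L* and *SLFN14* had 0 in each.

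**Figure D4:**
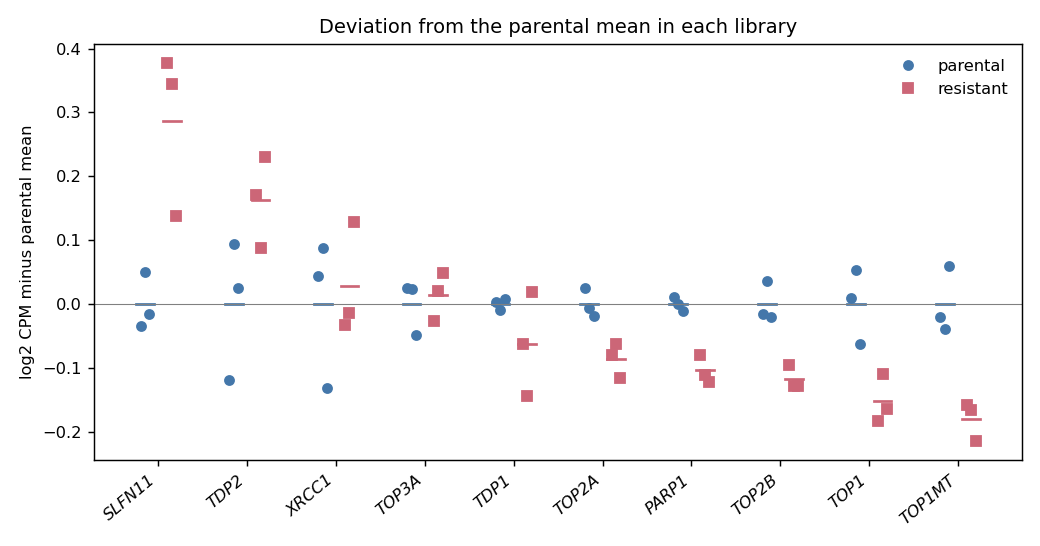
Log2 CPM of each member minus its parental mean (vertical axis), by library. Circles are parental and squares resistant libraries (n = 3 each), and the short line is the group mean. *SLFN11* and *TDP2* have means above 0, and the parental spread of *TDP2* and *XRCC1* is wider than that of *TDP1* or *PARP1*.

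Levels can be compared between genes only per length, in FPKM (CPM divided by gene length in kilobases). In parental cells the order was *PARP1* (127.9 ± 1.02 FPKM), *TOP2A* (81.3 ± 1.27), *TOP2B* (45.6 ± 1.01), *TOP1* (39.3 ± 1.59), *TDP2* (17.4 ± 1.29), *TOP3A* (11.4 ± 0.328), *XRCC1* (8.87 ± 0.696), *TDP1* (6.72 ± 0.042), *TOP1MT* (5.51 ± 0.200) and *SLFN11* (5.04 ± 0.157). No neighbours in that order overlapped between libraries. *TOP1*, the payload's target, lay above 92.2% of the 13576 protein-coding genes tested, whereas *SLFN11* lay above 45.5% of them, near the median of 6.0 FPKM. In resistant cells the first 8 places were held by the same genes, with *PARP1* at 119.0 ± 1.82 FPKM and *TOP1* at 35.4 ± 0.934 FPKM. *SLFN11* (6.16 ± 0.541 FPKM) then stood above *TOP1MT* (4.86 ± 0.103 FPKM), and the libraries of *TDP1* (6.44 ± 0.364 FPKM) and *SLFN11* overlapped, the only neighbours to do so.

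Genes around these members were counted on 8 lists of 93 genes in all, of which 88 were tested: 8 rose, 33 fell and 47 did not pass. Each list count is to be read beside the shares over all tested genes, 17.1% higher and 18.4% lower. Among the 7043 genes at least as abundant as the least abundant member, the shares were 22.6% higher and 24.8% lower. Some list genes lay below that abundance. Each median is to be read against 0.004 over all tested genes. Without the proliferation list the counts were 8, 18 and 42 of 68, and 0 genes of these lists reached an absolute log2 fold change over 1 with an FDR under 0.05 in edgeR. Among the other topoisomerase genes and partners, 6 of 8 were tested, 0 rose and 3 fell, with a median log2 fold change of -0.18. *TOPBP1*, which activates the ATR kinase at stalled forks, fell from 133.8 ± 5.55 to 114.3 ± 4.85 CPM (log2 fold change -0.23 ± 0.04, edgeR FDR 1.46e-05). *RMI2*, which works with TOP3A, fell from 51.5 ± 3.05 to 44.4 ± 1.67 CPM (-0.22 ± 0.06, edgeR FDR 0.00315).

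All 16 genes that remove protein stuck to DNA were tested: 3 rose, 2 fell and 11 did not pass, with a median log2 fold change of 0.03. *FAM111A*, a protease that acts on trapped TOP1 at replication forks, rose from 26.8 ± 2.04 to 37.5 ± 3.22 CPM (0.48 ± 0.07, edgeR FDR 1.08e-06). *GCNA*, another adduct protease, was below 1 CPM in mean in both groups (0.42, edgeR FDR 0.453). The SUMO ligase *PIAS4*, named after its values were seen, rose from 40.1 ± 2.88 to 51.3 ± 2.74 CPM (0.36 ± 0.06, edgeR FDR 9.84e-06).

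The 14 genes of single-strand break repair were split, with 3 higher, 3 lower and 8 that did not pass (median 0.04). *PARP3*, which acts at strand breaks, rose from 7.49 ± 0.412 to 10.8 ± 0.954 CPM (0.53 ± 0.12, edgeR FDR 0.000624). *PARP2* and the ligase *LIG1*, both named after their values were seen, moved the other way. *PARP2* fell from 67.2 ± 3.88 to 52.4 ± 3.95 CPM (-0.35 ± 0.06, edgeR FDR 2.53e-06), and *LIG1* fell from 175.4 ± 6.61 to 147.8 ± 3.09 CPM (-0.25 ± 0.04, edgeR FDR 4.19e-07). The 3 PARP enzymes measured here thus did not share a direction, with *PARP1* and *PARP2* lower and *PARP3* higher.

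Of 9 nuclease genes that can cut off a trapped topoisomerase, 2 rose, 1 fell and 6 did not pass (median -0.01). Partners of 1 complex did not move together. *MRE11* fell from 35.1 ± 2.69 to 27.6 ± 0.994 CPM (-0.35 ± 0.07, edgeR FDR 0.000135), and *NBN* rose from 76.0 ± 2.94 to 88.7 ± 2.14 CPM (0.22 ± 0.05, edgeR FDR 0.000122). A further partner, *RAD50*, named after its values were seen, did not pass (-0.01, edgeR FDR 0.946). Of the 12 genes of the replication stress response, 0 rose, 7 fell and 5 did not pass (median -0.11). *CHEK1*, the checkpoint kinase downstream of ATR, fell from 105.1 ± 2.04 to 86.6 ± 1.63 CPM (-0.28 ± 0.04, edgeR FDR 6.65e-07). *CHEK2* fell from 43.0 ± 2.51 to 35.5 ± 2.45 CPM (-0.27 ± 0.07, edgeR FDR 0.00099). Several of these genes are also known to be transcribed more in dividing cells, and the proliferation list was lower in the same libraries, whose part here was not tested.

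The mitochondrial nucleoid, where TOP1MT works, had 9 of 9 genes tested, of which 0 rose, 2 fell and 7 did not pass (median -0.03). *POLG*, the mitochondrial DNA polymerase, fell from 118.5 ± 1.52 to 104.8 ± 4.94 CPM (-0.18 ± 0.04, edgeR FDR 0.000537). *TEFM*, a mitochondrial transcription elongation factor, had a log2 fold change of 0.17 and did not pass (edgeR FDR 0.285).

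The tested genes within 1 Mb of each member were taken as its neighbours. The 6 neighbours of *TOP1* had a median log2 fold change of -0.15, close to that of *TOP1* itself, and 3 fell and 0 rose. Those that fell included *PLCG1* (-0.14, edgeR FDR 0.0223) and *ZHX3* (-0.16, edgeR FDR 0.0244), whereas *CHD6* (0.09), *LPIN3* (0.18) and *EMILIN3* (-0.57) did not pass. These neighbours were named after their values were seen. The 32 neighbours of *TOP2A* had a median of -0.06, with 11 lower and 2 higher, while the 4 neighbours of *TOP2B* had a median of 0.08 and the 19 neighbours of *PARP1* one of 0.001. The 19 neighbours of *SLFN11* had a median of -0.06, opposite in sign to *SLFN11*, and the 55 neighbours of *TOP1MT* had a median of 0.10, opposite in sign to *TOP1MT*. The medians were -0.05 over 32 neighbours of *TOP3A*, -0.06 over 10 of *TDP1*, -0.12 over 13 of *TDP2* and 0.26 over 30 of *XRCC1*. The last was the largest of the 10 medians, with 9 neighbours higher and 1 lower, and within 2 Mb it was 0.01. The part of position in the level of *TOP1* was not tested.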

How the data were processed

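Poly(A) RNA was sequenced on a NovaSeq instrument. According to the submitters' processing notes and the study's methods, the authors trimmed reads with fastp, aligned them to hg38 with HISAT2 2.0.5 and counted them per gene with featureCounts 1.5.0-p3. The deposited values are raw read counts per gene with the gene length that the authors gave. The annotation release and the strand setting are not given in the sources used here. All sample columns of the table were matched to the labels.

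Counts were analyzed in edgeR 4.0.16 (R 4.3.3): filterByExpr kept 17142 genes, libraries were scaled with TMM, and the quasi-likelihood test was adjusted by Benjamini-Hochberg over all genes. An FDR under 0.05 is a pass, and an absolute log2 fold change over 1 in addition is the study's call. FPKM was computed from counts, deposited length and TMM library size. Intervals are the log2 fold change plus or minus the t quantile times the SE. Single values were compared by exact permutation tests. The fit was tested on simulated data with 100 genes changed by an absolute log2 fold change of 2 and 100 by 0.5. At an FDR under 0.05, edgeR recovered 100 and 63 of them, with 14 false passes among 16630 genes. No smaller changes were simulated, whereas the largest absolute log2 fold change of a member was 0.29. The changed genes were drawn across a wide range of abundance, so these recoveries are not those of genes as abundant as the members.

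Within groups, libraries differed by more than counting noise (chi-square over degrees of freedom 1.79 to 2.48), so all 6 were counted separately. Over all tested genes, same-numbered libraries did not deviate together, and the labels give them only a shared number, so no pairing was used.

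Alternatives were library size alone, upper quartile scaling, DESeq2 1.42.0, limma 3.58.1 as voom and on log2(FPKM + 1), genes with any count, genes with 10 or more counts in all libraries, protein-coding genes only, a prior count of 5, the replicate number as a block, and each library left out in turn. The members and lists were chosen with earlier results of these data known. Of each list the text names genes past an FDR of 0.05 with an absolute log2 fold change over 0.5, or otherwise the 2 with the largest absolute log2 fold change. Other genes are marked where named. No gene sequence was used here. Values of some genes that were counted are not reported here.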

Additional observations from a re-analysis of the deposited data

How the results depend on the processing

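The count of members that were higher was 1 rather than 2 with DESeq2 and with limma on log2(FPKM + 1), and between 1 and 2 when 1 library at a time was left out (1 without parental replicate 1, resistant replicate 1 or resistant replicate 3). The count of lower members was between 3 and 5 in those fits, with 3 without resistant replicate 3. The list genes that passed numbered 33 to 40 in them, against 41 with all libraries. *TOP1*, *TOP2B*, *PARP1* and *SLFN11* passed under all 10 alternatives and in all 6 fits without 1 library. *TOP3A*, which did not pass in any of these fits, turned to a log2 fold change of -0.0037 with library size alone, -0.0019 with limma on log2(FPKM + 1), and ranged from -0.0093 to 0.0344 without 1 library (-0.0093 without parental replicate 3 and -0.0044 without resistant replicate 3). *XRCC1*, which did not pass either, ranged from -0.0353 to 0.0648 without 1 library, with -0.0353 without parental replicate 3 and -0.0299 without resistant replicate 3. *TOP1MT* also did not pass without the filter on low counts (FDR 0.0692). The log2 difference of the ratio of *TOP1MT* to *TOP1* was between -0.0736 and 0.0334 without 1 library. Within 2 Mb rather than 1 Mb, the median log2 fold change of the neighbours was -0.0209 for *TOP3A* (-0.0515 within 1 Mb), 0.0185 for *TDP1* (-0.058), 0.0011 for *TDP2* (-0.1182) and 0.0132 for *XRCC1* (0.2565), where the wider window holds more genes. The causes of the other changes were not tested.

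With the replicate number as a block (replicate block), 2 members were higher and 5 lower, as without it, and 39 list genes passed. Deviations of same-numbered libraries correlated at -0.0196 to -0.0081 over all tested genes. A shared culture or preparation that moved few genes would not show in such a correlation. With 3 libraries per group, *TOP3A*, *TDP1* and *XRCC1* may differ by as much as their intervals allow, and levels of RNA say nothing of protein or activity.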

Other observations

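Over the 6 libraries, the protein-coding genes whose log2 CPM, centred on the parental mean, lay nearest to that of *TOP1* were *PTPN11*, *LCORL*, *CDC27*, *BCL7C* and *LARS*, with root mean square differences of 0.0184, 0.0190, 0.0206, 0.0207 and 0.0221 among 13575 genes compared. For *SLFN11* they were *FBXL12* (0.0231), *SULT1A2* (0.0306), *FNBP1* (0.0385), *ANXA2R* (0.0393) and *SYNJ2BP* (0.0415). The 6 points of each profile share their libraries and fall into only 2 groups, so this is a description of likeness with no test.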
